A study of Mus musculus with 19 samples.

Results

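Whether microglia from APP mice answered lipopolysaccharide (LPS) differently from wild-type (WT) microglia was measured as a difference of differences, the log2 change from vehicle to LPS in APP cultures minus the same change in WT cultures. The contrast used 18 of the 19 libraries, arranged as 9 pairs of vehicle and LPS libraries with consecutive library numbers. The WT pairs were 9/10, 21/22, 41/42 and 57/58, and the APP pairs were 3/4, 7/8, 11/12, 51/52 and 59/60. A further WT LPS library had no vehicle partner and was not in the contrast. Genes with a mean of at least 20 CPM over all 19 libraries were tested, which kept 6217 of 16941 genes. CPM is a gene's counts scaled by the library's total and its TMM normalization factor. The choice of libraries and genes used no ratio of LPS to vehicle, but the mean included the LPS libraries. A gene raised by LPS could therefore pass through its LPS level. Zbp1, for example, averaged 11.6 CPM in WT vehicle and 18.5 CPM in APP vehicle, and 35.1 and 47.2 CPM with LPS. Farp1 lay just outside the limit at 19.99 CPM and Clk4 just inside it at 20.01 CPM.

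All cultures were microglia from the cortices of C57BL/6 mice aged 10 to 11 months. The APP animals carried the hAPPJ20 transgene (PDGFAPPSw,Ind), human amyloid precursor protein with the Swedish and Indiana mutations behind a PDGF promoter, and the WT animals did not. This promoter is known for expression in neurons, and the cultures had been kept away from brain tissue for 4 weeks. During those weeks every culture received 10% fetal bovine serum and 5 ng/mL macrophage colony-stimulating factor, the growth factor that keeps microglia alive in a dish. LPS was given at 100 ng/mL for 6 h and vehicle was medium alone. Both arms then spent 16 h in fresh medium, so each library records RNA after recovery and not at the height of the exposure. Libraries were QuantSeq 3' mRNA libraries, which read the end of each transcript. The labels did not say which libraries came from the same animal or culture, so the p-values measure the spread between these pairs of libraries.

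LPS is a component of the outer membrane of Gram-negative bacteria and is sensed by the receptor Tlr4 with its partners Cd14 and Ly96. The receptor signals through Myd88 to NF-kB, which turns on cytokine and chemokine genes, and through Ticam1 to interferon and interferon-stimulated genes, while proteins such as Socs3, Irak3 and Tnfaip3 brake the signal. Cells that have met an inflammatory stimulus before can answer the next one more strongly, called priming, or more weakly, called tolerance, and either would appear in a contrast of this kind as genes whose LPS response differs between genotypes.

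Total counts ran from 17712123 to 31248988 in the 4 WT vehicle libraries and from 15270080 to 25610461 in their 4 LPS partners. They ran from 18990298 to 25502823 in the 5 APP vehicle libraries and from 13065257 to 23165305 in the 5 APP LPS libraries. Tyrobp, an adaptor of myeloid receptors, was at 159 to 1558 CPM over the 19 libraries. The markers that set brain microglia apart from other macrophages were low, with P2ry12 at 0 in 6 libraries, Tmem119 at 0 in 3 and Sall1 at 0 in 2. Lrrc17, a gene of the fibroblast and pericyte list, was at 21661 to 78065 CPM. Other genes listed for these cells were far lower, with Dcn at 558 to 2439, Col1a1 at 74.8 to 660, Col1a2 at 58.0 to 1016 and Pdgfrb at 1.87 to 69.9 CPM. Transcripts of genes listed for other cells were thus present, and which cells they came from was not tested. The neuronal gene Snap25 was at 0 in 15 libraries, but other genes of the neuron list were present. In the paired libraries Stmn2 was at 33.9 to 202 CPM and Dlg4 at 17.8 to 80.0 CPM, and the list summed to 105 to 339 CPM. Libraries 57 to 60 stood apart, with summed homeostatic microglia genes at 4260 to 4887 CPM against 8018 to 12182 CPM in the other 15, and they held 1 pair of each genotype. The Y-linked gene Ddx3y gave 2 male and 2 female pairs in WT and 2 male and 3 female pairs in APP. Mouse App was at 976 to 2216 CPM in the paired libraries, and its LPS response was -0.05 ± 0.11 in WT and -0.14 ± 0.10 in APP (log2 ± SE). Whether reads of the human transgene were counted under App is not given in the sources used here, so App does not check the genotype labels.

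No gene passed the test of a genotype difference in the LPS response. Of 6217 genes, 0 (0%) had an adjusted p under 0.05 with edgeR's quasi-likelihood test on pairs, and the smallest adjusted p was 0.999. At an unadjusted p under 0.05 there were 193 genes (3.1%), below the share of 0.05 that chance alone would give. Of these, 63 (1.01%) had the larger log2 response in APP and 130 (2.09%) the smaller. DESeq2 on the same pairs called 1 gene, mt-Nd4l, described with the mitochondrial genes, and limma voom called 0. Over all genes the median difference in response was -0.04 on the log2 scale, and 44.6% of genes lay above 0. The median standard error was 0.34 and the median half-width of the 95% interval was 0.74. For 3220 genes the whole interval lay between -1 and 1, so a difference of 2-fold or more lay outside it, whereas for the other genes a difference of that size lay within what these 9 pairs allow.

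LPS responses were called in both genotypes. Over all 6217 genes the log2 responses of WT and APP, which come from separate libraries, correlated at a Pearson r of 0.41 and a Spearman rho of 0.39, a description across genes that are not independent. Averaged over the genotypes, LPS changed 248 genes (3.99%), of which 122 rose (1.96%) and the others fell (2.03%). The change had the same sign in WT and APP for 247 of the 248. Leaving out 1 pair gave 100 genes without 21/22, 115 without 9/10, 122 without 7/8, 162 without 57/58 and 187 to 314 without each of the others, and 262 were called without both 57/58 and 59/60. The genes that rose had a median log2 change of 0.85 in WT and 0.89 in APP, and 66 of the 122 had the larger value in APP. The genes that fell had a median of -0.55 in WT and -0.71 in APP, and 94 of them (74.6%) had the more negative value in APP. The median difference in response was 0.03 for the genes that rose and -0.15 for those that fell, beside -0.04 over all genes tested. The genotype values share the fit that chose these genes, so the agreement in sign is a description that their selection on the average favours.

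**Figure D1:**
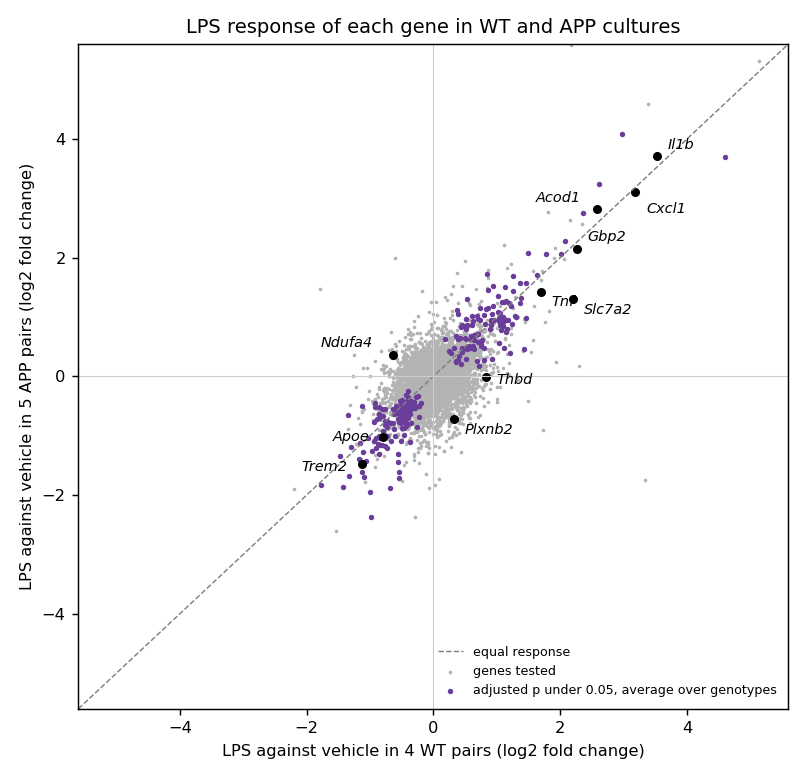
Each point is 1 of the 6217 genes tested, with its log2 change under LPS in the 4 WT pairs on the x axis and in the 5 APP pairs on the y axis; 2 genes lie outside the axes. Purple points are the 248 genes with an adjusted p under 0.05 for LPS averaged over genotypes, the dashed line marks an equal response, and named genes are black. Il1b, Cxcl1, Acod1, Apoe and Trem2 lie close to the line, and Thbd, Ndufa4 and Plxnb2 lie off it.

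Il1b, the cytokine interleukin-1 beta, had the largest response averaged over the genotypes among the cytokines that were above 0 in every library. In the 4 WT pairs its vehicle and LPS levels were 14.1 and 245, 10.7 and 305, 61.5 and 388, and 70.9 and 428 CPM. In the 5 APP pairs they were 15.0 and 328, 25.99 and 729, 6.39 and 233, 52.4 and 265, and 131 and 433 CPM. Every LPS library was above every vehicle library, and the WT and APP pairs overlapped throughout. The log2 response was 3.53 ± 0.56 in WT and 3.71 ± 0.52 in APP (SE, n = 4 and 5 pairs). The WT call (adjusted p = 0.0157) was lost without 9/10, 21/22 or 57/58, with an adjusted p of up to 0.117, and the APP call held without each pair (edgeR quasi-likelihood). The difference was 0.18 ± 0.71, with a 95% interval from -1.34 to 1.70. The exact two-sided permutation test over all regroupings of the 9 pairs gave p = 0.873, where the smallest value it can give is 0.00794.

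Tnf, the cytokine tumour necrosis factor, rose from 35.03 to 89.0, 16.4 to 72.3, 25.4 to 60.4 and 24.3 to 101 CPM in the WT pairs. In the APP pairs it went from 28.6 to 76.6, 19.1 to 128, 51.6 to 110, 26.7 to 39.05 and 22.2 to 57.8 CPM. All 9 pairs had the higher level with LPS. The log2 response was 1.70 ± 0.31 in WT and 1.43 ± 0.28 in APP, and the difference was -0.27 ± 0.41 (95% interval -1.14 to 0.60, exact permutation p = 0.556). The WT call was lost without any 1 of the 4 WT pairs or without 11/12 (adjusted p up to 0.328), and the APP call without 3/4, 7/8 or 11/12 (up to 0.0933, edgeR). Averaged over the genotypes, the calls for Il1b and Tnf held without each of the 9 pairs in turn.

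Apoe and Trem2 fell in APP and averaged over the genotypes, and in WT neither was called, with an adjusted p of 0.0883 for each (edgeR quasi-likelihood). Apoe encodes the lipid carrier apolipoprotein E, and Trem2 a lipid-sensing receptor of microglia that signals through Tyrobp. Apoe went from 697 to 345, 593 to 273, 415 to 283 and 397 to 287 CPM in the WT pairs, and from 418 to 204, 465 to 147, 402 to 172, 280 to 169 and 314 to 223 CPM in the APP pairs. Trem2 went from 198 to 92.8, 232 to 76.1, 137 to 103 and 51.5 to 20.1 CPM in WT, and from 184 to 40.02, 219 to 87.2, 141 to 35.6, 134 to 60.0 and 18.6 to 11.4 CPM in APP. Both genes were lower with LPS in all 9 pairs, and the ratios of the genotypes overlapped. The difference in log2 response was -0.24 ± 0.23 for Apoe (exact permutation p = 0.397) and -0.36 ± 0.33 for Trem2 (exact permutation p = 0.389). Adjusted over the 4 genes tested this way, p was 0.741 for Tnf, Apoe and Trem2 and 0.873 for Il1b.

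**Figure D2:**
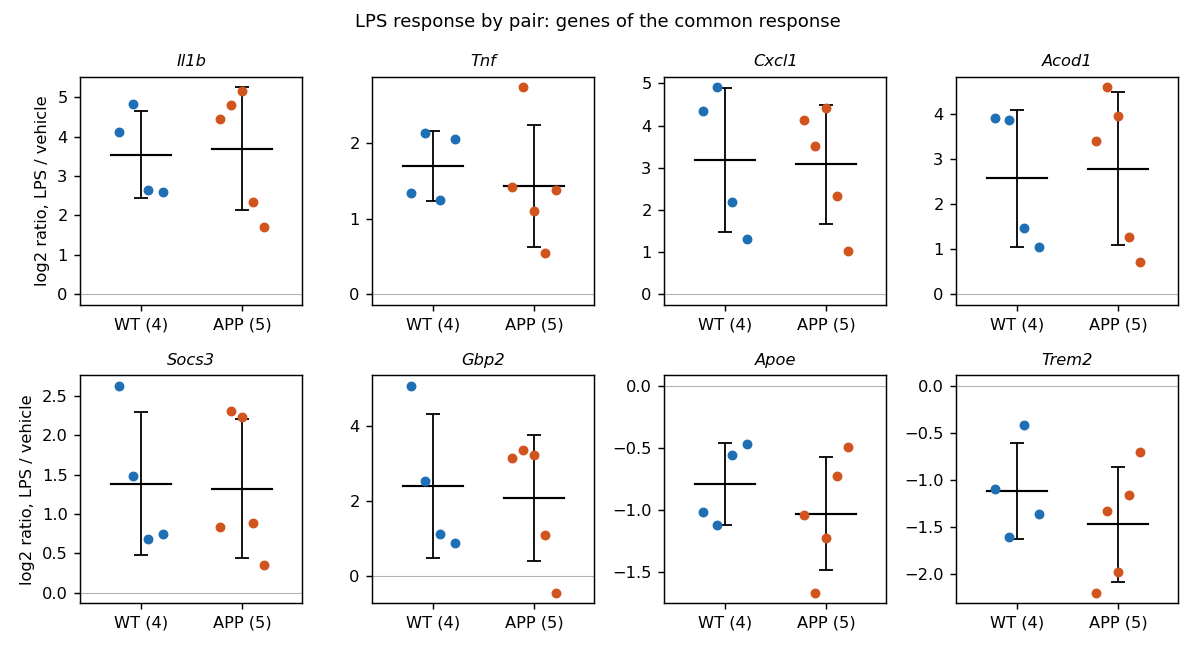
Points are the log2 ratio of LPS to vehicle in each pair (CPM with a prior count of 2), for 4 WT pairs in blue and 5 APP pairs in orange; bars give the mean ± SD. In each of the 8 genes the ratios of WT and APP overlapped, and for Il1b, Cxcl1 and Acod1 the pairs within each genotype form an upper and a lower set.

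The pairs differed more within a genotype than the genotypes did from each other. The 122 genes that rose had a median log2 ratio of 1.13, 1.26, 0.45 and 0.62 in the WT pairs 9/10, 21/22, 41/42 and 57/58. In the APP pairs 3/4, 7/8, 11/12, 51/52 and 59/60 it was 1.19, 1.19, 1.04, 0.53 and 0.30. The genes that fell had medians of -0.73, -0.74, -0.28 and -0.54 in WT and -0.77, -0.83, -0.79, -0.57 and -0.61 in APP. In both genotypes the pairs with library numbers up to 22 had the larger responses and those with numbers from 41 the smaller. The labels do not say what the numbers stand for, and these ranges were set after the values had been seen.

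For some genes the vehicle libraries differed between these ranges. Il1b was at 6.39 to 25.99 CPM in the 5 vehicle libraries numbered up to 22 and at 52.4 to 131 CPM in the 4 numbered from 41, whereas with LPS the ranges were 233 to 729 and 265 to 433 CPM. Acod1, which makes the antimicrobial metabolite itaconate, was at 14.1 to 30.96 CPM against 105 to 166 CPM in vehicle, and at 324 to 455 against 208 to 357 CPM with LPS. Gbp2, an interferon-induced GTPase, was at 4.58 to 30.6 against 45.0 to 260 CPM in vehicle, and at 128 to 264 against 97.0 to 206 CPM with LPS. The vehicle levels of Il1b and Acod1 did not overlap between the ranges, nor did those of Gbp2. For other genes the LPS libraries differed too or instead. Irak3 was at 28.4 to 60.3 against 63.9 to 78.2 CPM in vehicle and at 112 to 221 against 66.5 to 108 CPM with LPS, and Tnf was at 16.4 to 51.6 against 22.2 to 26.7 CPM in vehicle and at 72.3 to 128 against 39.05 to 101 CPM with LPS. Within the lower numbers the Il1b response was 4.47 in WT (2 pairs) and 4.80 in APP (3 pairs), and within the higher numbers it was 2.62 and 2.03 (2 pairs each). The sign of the difference between genotypes therefore changed between the ranges, from 0.34 to -0.60, for a gene whose pooled difference did not pass the test.

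The LPS receptor and its adaptors showed no called difference among the 12 of 15 genes that reached 20 CPM. Of these, 3 had the larger response in APP and 9 the smaller, with a median of -0.19 beside -0.04 over all genes. The members with the smallest p were Tlr2, a receptor for bacterial lipoproteins, at -1.12 ± 0.59, and Ly96, the Tlr4 partner that holds LPS, at 0.64 ± 0.36. Tlr2 went from 14.4 to 56.4, 21.9 to 46.1, 43.9 to 35.97 and 18.3 to 17.8 CPM in WT and from 36.9 to 26.8, 34.9 to 48.2, 36.3 to 49.3, 37.4 to 16.1 and 18.9 to 6.52 CPM in APP. Tlr2 was higher with LPS in the pairs 9/10, 21/22, 7/8 and 11/12 and lower in the other 5, so its direction differed within each genotype. Cd14, singled out after its values had been seen, rose in APP by 0.89 and was at 1.07 in WT on the log2 scale, with a difference of -0.19. Its APP call was lost without 3/4, 7/8, 11/12 or 59/60 (adjusted p up to 0.168, edgeR), and its call averaged over genotypes held without each pair.

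Averaged over the genotypes, LPS called 6 of 11 cytokine genes, 9 of 15 chemokine genes and 19 of 32 other NF-kB targets and LPS effectors higher. Of all genes 1.96% were called higher, and 0 members of these lists were called lower. The 20 CPM limit was set over vehicle and LPS libraries together, so members with high LPS levels passed it more readily. Of the 11 cytokine genes, 6 had a difference above 0 and the median was 0.06, with 2 called in WT and 4 in APP, all higher, beside 13 (0.209%) and 38 (0.611%) of all genes called higher. Il1a, an alarm cytokine whose APP call was lost without 3/4, 7/8 or 11/12 (adjusted p up to 0.15, edgeR), had 0.503 to 43.6 CPM in APP vehicle libraries and 58.9 to 151 CPM with LPS. In WT its levels went from 6.26 to 75.9, 3.10 to 75.0, 30.9 to 145 and 44.4 to 135 CPM. Its difference of 1.12 ± 1.10 is the widest interval among the cytokines that were detected in every library, from -1.24 to 3.48. Il12b, a subunit of interleukins 12 and 23, was at 0 in 1 WT and 3 APP vehicle libraries and at 237 CPM in the APP vehicle library of pair 59/60, so its fitted change depends on how 0 is handled. Ebi3, which pairs with other cytokine subunits, had a difference of 0.59 ± 0.41.

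Of 15 chemokine genes, 11 had the larger log2 response in APP, and the median difference was 0.11. LPS called 5 of them higher in APP pairs and 0 in WT pairs, read against the same 0.611% and 0.209%. Ccl3, a chemokine for monocytes and T cells, went from 259 to 753, 150 to 345, 427 to 470 and 351 to 516 CPM in WT. In APP it went from 190 to 934, 139 to 588, 354 to 929, 228 to 361 and 199 to 356 CPM. Its response was 0.86 ± 0.27 in WT and 1.45 ± 0.24 in APP, called only in APP (adjusted p = 0.303 and 0.0118, edgeR quasi-likelihood), and the difference of 0.59 ± 0.36 did not pass the test. Without the APP pair 7/8 the adjusted p for Ccl3 in APP was 0.0732 (edgeR). Cxcl1, a neutrophil chemokine, had responses of 3.19 ± 0.63 and 3.11 ± 0.56 and a difference of -0.07 ± 0.80. Ccl6 had 574 to 4682 CPM over the paired libraries and a difference of 0.53 ± 0.37. Cxcl3 and Cxcl5 were at 0 in 3 and 4 libraries, all of them vehicle, and were above 0 in every LPS library of both genotypes.

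The list of 32 NF-kB targets and LPS effectors was split evenly, with 16 differences above 0 and 16 below and a median of -0.00. The test called 5 of them higher in WT and 10 in APP, against 0.209% and 0.611% of all genes, and 19 higher averaged over the genotypes. Acod1 had responses of 2.58 ± 0.65 and 2.81 ± 0.60 and a difference of 0.24 ± 0.86. Saa3, an acute-phase protein, had 1.78 ± 0.46 and 2.06 ± 0.43 and a difference of 0.28 ± 0.62. Mmp13, a collagenase, rose in APP by 1.31 ± 0.29 and was at 0.53 ± 0.31 in WT, and the difference was 0.78 ± 0.42. The APP calls of Acod1, Saa3 and Mmp13 were each lost without 3/4, 7/8 or 11/12 (adjusted p up to 0.162, edgeR), that of Mmp13 also without 41/42 or 59/60 and that of Saa3 also without 57/58. Slc7a2, a transporter of arginine, was the 1 member with an unadjusted p under 0.05.

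Among 15 brakes on LPS signalling, 5 differences lay above 0 and the median was -0.20. Socs3, an inhibitor of JAK-STAT signalling, had responses of 1.37 ± 0.37 and 1.32 ± 0.34, and Irak3, an inactive kinase that blocks Myd88 signalling, had 1.08 ± 0.36 and 1.25 ± 0.33. Both rose when the genotypes were averaged, a call that Irak3 lost without 9/10, 21/22 or 7/8 (adjusted p up to 0.0626, edgeR), and their differences were -0.06 ± 0.50 and 0.16 ± 0.48. The members with the smallest p were Tnip1, a partner of Tnfaip3, at -0.64 ± 0.40, and the phosphatase Inpp5d at -0.57 ± 0.36. Tnfaip3 itself, which removes ubiquitin chains from the signalling complex, was at -0.21 ± 0.48.

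Interferon-stimulated genes had a median difference of 0.04 over 36 genes, 19 of them above 0, and 0 were called for LPS in either genotype alone. Their median log2 ratio by pair was 1.62, 0.88, 0.39 and 0.23 in WT and 1.85, 1.80, 1.70, -0.30 and -0.58 in APP. The APP pairs with numbers up to 22 were thus all above the WT pairs, and the APP pairs 51/52 and 59/60 were below them. Averaged over the genotypes, 1 of the 36 was called higher, Gbp2, beside 1.96% of all genes. The Gbp2 response was 2.26 ± 0.70 in WT and 2.15 ± 0.64 in APP, and the averaged call was lost without 21/22 or 7/8 (adjusted p up to 0.071, edgeR). Zbp1, a sensor of nucleic acids, had a difference of 0.24 ± 1.08, and Ifi44 was at 0 in 1 vehicle library of each genotype and at 314 CPM in the vehicle library of pair 59/60. Irf1, a transcription factor induced by interferon, had a difference of -1.25 ± 0.50 at an unadjusted p of 0.0247. Irf1 went from 35.4 to 27.5, 34.2 to 62.9, 16.7 to 41.0 and 47.2 to 63.8 CPM in WT and from 46.9 to 68.2, 56.9 to 26.6, 32.6 to 8.51, 23.7 to 16.4 and 53.8 to 38.9 CPM in APP. It was higher with LPS in 3 of 4 WT pairs and in 1 of 5 APP pairs. Igtp, another interferon-induced GTPase, was at 1.21 ± 0.68.

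**Figure D3:**
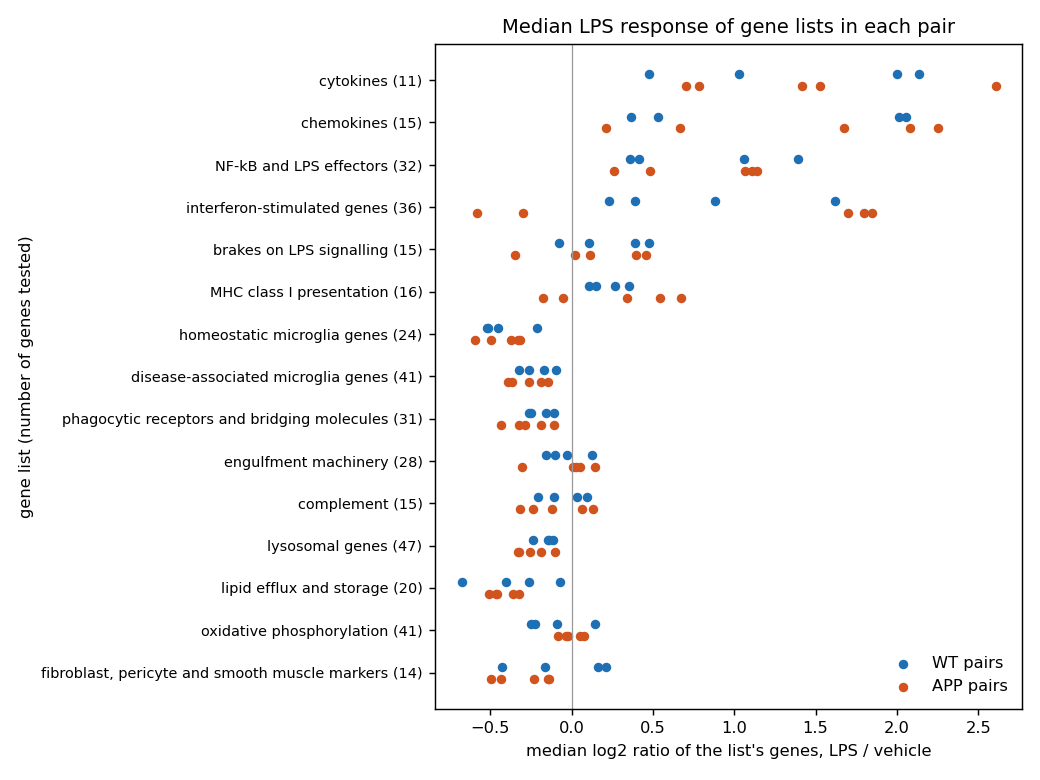
Points are the median log2 ratio of LPS to vehicle over the tested genes of each list, 1 point per pair, with 4 WT pairs in blue and 5 APP pairs in orange. The interferon-stimulated genes spread widest, from -0.58 to 1.85, and WT and APP pairs overlapped or interleaved in all 15 lists drawn.

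Genes of the microglial state had median responses below 0 in both genotypes, and no difference between the genotypes passed the test. Of 24 homeostatic genes tested, 18 had the lower response in APP and the median difference was -0.09, with 5 called lower in APP and 0 in WT, beside 53 (0.853%) and 4 (0.0643%) of all genes called lower. Golm1 was at -0.87 ± 0.48. Of 41 disease-associated microglia genes, 25 had the lower response in APP and the median was -0.08, with 2 called lower in WT and 11 in APP. Lyz2, the lysozyme gene, was at 2620 to 14112 CPM, and its ratios were 0.26, -0.10, -0.19 and -0.17 in WT and -0.56, -0.26, -0.24, -0.24 and -0.31 in APP. The Lyz2 ratios did not overlap between genotypes, and the difference of -0.27 ± 0.13 had an unadjusted p of 0.0574. The summed homeostatic genes were at 4260 to 4887 CPM in libraries 57 to 60, and in bulk cultures fewer microglia and less RNA per microglial cell cannot be told apart.

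The genes of engulfment, the process named in the study's title, gave no called difference. Of 31 phagocytic receptors and bridging molecules tested, 22 had the lower response in APP and the median was -0.13, and of 28 genes of the engulfment machinery 15 were above 0 with a median of 0.04. Pros1, protein S, which links phosphatidylserine on a dying cell or synapse to phagocytic receptors, fell in APP by 0.86 and was at -0.26 ± 0.21 in WT. It went from 214 to 123, 165 to 138, 131 to 145 and 98.4 to 88.3 CPM in WT and from 179 to 91.4, 85.3 to 40.7, 206 to 126.4, 131 to 48.7 and 99.9 to 92.2 CPM in APP. All 5 APP pairs and 3 of 4 WT pairs were lower with LPS, and the ratios overlapped at an unadjusted p of 0.0497. The APP call (adjusted p = 0.0381) was lost without 21/22, 57/58, 3/4, 7/8, 11/12 or 51/52, with an adjusted p of up to 0.162 (edgeR). Itgav, an integrin subunit for apoptotic cells, was at -0.68 ± 0.34, and Elmo2, which activates Rac during engulfment, was at -0.68 ± 0.42. Pik3cg, a lipid kinase, was at 0.78 ± 0.49.

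No complement, lysosome or presentation gene had a called difference between the genotypes. In the complement list 5 of 15 differences were above 0 with a median of -0.07. Serping1, the inhibitor of the C1 proteases, was at -0.74 ± 0.51. C1qc, a chain of the C1q complex that tags synapses, fell in APP by 0.67 and was at -0.49 ± 0.12 in WT, and the difference was -0.18 ± 0.17, with a 95% interval of -0.54 to 0.18. Without 7/8 the adjusted p of C1qc in APP was 0.0732 (edgeR). Of 47 lysosomal genes, 20 were above 0 with a median of -0.03, and 1 was called lower in WT and 5 in APP, against 0.0643% and 0.853% of all genes. Ctsd, an aspartic protease, was at -0.47 ± 0.13 and -0.77 ± 0.12, and Ctsa, a protective carboxypeptidase, was at -0.23 ± 0.14 and -0.68 ± 0.12. Ctsa was lower with LPS in all 5 APP pairs, by 0.34 to 1.09, and its difference of -0.44 ± 0.18 had an unadjusted p of 0.029. Its APP call was lost without 11/12 or 51/52 (adjusted p up to 0.0747, edgeR), whereas that of Ctsd held without each pair. MHC class I genes had a median of -0.05 over 16 genes, with H2-D1 at 0.31 ± 0.18 and the trimming peptidase Erap1 at -0.54 ± 0.33. Of the MHC class II and costimulation genes only 5 reached 20 CPM, with Cd86, a ligand of T cells, at -0.97 ± 0.54 and Ifi30, a reductase of lysosomal antigens, at 0.26 ± 0.31.

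Among the metabolic genes 0 differences were called. Of 41 oxidative phosphorylation genes, 30 had the larger response in APP, against 44.6% of all genes, and the median was 0.11. Glycolysis genes were above 0 in 6 of 17 (35.3%, median -0.08), with Aldoa at -0.52 ± 0.25 and Hif1a, the oxygen-sensing transcription factor, at -0.52 ± 0.28. Oxidative stress genes were above 0 in 16 of 25. Txn1, thioredoxin, rose in APP by 0.64 ± 0.14 and was at 0.18 ± 0.15 in WT, and Gsr, which regenerates glutathione, had a difference of 0.60 ± 0.33. The Txn1 call in APP was lost without any 1 of 3/4, 7/8, 11/12 and 51/52 (adjusted p up to 0.139, edgeR). Of the lipid efflux and storage genes 6 of 20 were above 0 (median -0.12), with Pnpla2, a triglyceride lipase, at -1.19 ± 0.66 and Scd2, a fatty acid desaturase, at -0.66 ± 0.32. Of the cholesterol synthesis genes 3 of 12 were above 0, with Idi1 at -0.58 ± 0.39 and Sc5d at -0.39 ± 0.29.

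Markers of other cells were followed because their share could move with the response. Of 14 fibroblast, pericyte and smooth muscle genes, 1 had a difference above 0 and 13 below, with a median of -0.19 and 0 called. Their summed level was 33250 to 42363 CPM in WT vehicle, 32589 to 49565 in WT LPS, 27905 to 56045 in APP vehicle and 30827 to 81370 in APP LPS, so the groups overlapped. Lrrc17 made up 77.6% to 96.4% of each sum. The other 24 genes of the list summed to 2364 to 4376 and 2479 to 4730 CPM in WT vehicle and LPS and to 1941 to 6514 and 2085 to 7474 CPM in APP, which overlapped as well. Pdgfrb, the pericyte receptor, was at -1.05 ± 0.71 and Rgs5 at -0.80 ± 0.55. Astrocyte genes gave 5 of 5 below 0, with summed levels of 198 to 441, 190 to 349, 301 to 744 and 276 to 593 CPM in vehicle and LPS libraries of WT and then of APP, in that order. Gfap and Aqp4, which define astrocytes, were at 0 in 11 of 19 libraries each. Sox9 was at -0.70 ± 0.45 and Aldoc, which fell when the genotypes were averaged, at -0.34 ± 0.49. Their part in the differences above was not tested.

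In the remaining lists 0 differences were called. Beside -0.04 over all genes, the median difference was -0.11 for neuron, -0.32 for oligodendrocyte lineage and 0.05 for endothelial genes. It was -0.17 for border-associated macrophage and -0.03 for monocyte and neutrophil genes. For cell division, heat shock and unfolded protein, and immediate early genes it was -0.17, 0.01 and -0.02. Of 3 tested neuron genes 1 was above 0, with Stmn2 at -0.37 ± 0.25 and Dlg4 at -0.12 ± 0.41, and of 3 oligodendrocyte lineage genes 1, with Pdgfra at -0.66 ± 0.47. Of 5 endothelial genes 3 were above 0, with Pecam1 at 0.20 ± 0.25 and Flt1 at 0.47 ± 0.60. Border-associated macrophage genes were above 0 in 2 of 6, with Ccr1 at 0.73 ± 0.53 and Pf4 at -0.21 ± 0.23, and monocyte and neutrophil genes in 2 of 4, with Fn1 at -0.29 ± 0.24 and Vcan at -0.19 ± 0.43. No lymphocyte gene reached 20 CPM. Cell division genes were above 0 in 3 of 9, with the replication helicase subunit Mcm3 at -1.08 ± 0.50 and Cenpf at 1.04 ± 0.58. Heat shock and unfolded protein genes were above 0 in 9 of 17, with Dnajb1 at 0.65 ± 0.33 and Sdf2l1 at -0.32 ± 0.30. Immediate early genes were above 0 in 7 of 15, with Ier5 at -0.44 ± 0.22 and Jun at 0.29 ± 0.24. Of 22 Alzheimer risk genes of myeloid cells 7 were above 0 with a median of -0.10, and Ptk2b, a kinase at one of those loci, was at 1.42 ± 0.58.

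The genes with the smallest unadjusted p were described by pair, without a call. The 12 with the smallest p in each direction were taken, so their values are those that chose them. In the downward group the ratios of WT and APP did not overlap for 7 of the 12, and in the upward group for 5 of 12. Over all genes tested 79 (1.27%) had ratios that did not overlap, 33 (0.531%) with APP higher and 46 (0.74%) with APP lower.

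Thbd, thrombomodulin, the surface receptor that turns thrombin into an anticoagulant enzyme, had the smallest p of all at 0.000558. In WT it went from 74.6 to 135, 129 to 182, 94.1 to 210 and 187 to 321 CPM. In APP it went from 129 to 145, 135 to 141, 78.6 to 64.8, 379 to 357 and 168 to 178 CPM. All 4 WT pairs were higher with LPS, and the APP pairs lay on either side of no change. Thbd rose in WT by 0.82 ± 0.14 (adjusted p = 0.0233) and was at -0.01 ± 0.12 in APP, and the difference was -0.83 ± 0.19 with an adjusted p of 0.999 (edgeR quasi-likelihood, 6217 genes). The WT call was lost without any 1 of the 4 WT pairs or without 51/52 (adjusted p from 0.052 to 0.12). Before LPS, APP cultures were higher than WT by 0.43 and after LPS lower by 0.40, as mean log2 CPM.

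Slc7a2 rose in both genotypes, with the larger estimate in WT. It went from 23.03 to 160, 28.5 to 209, 63.1 to 188 and 284 to 840 CPM in WT and from 110 to 317, 93.7 to 226, 44.5 to 121, 181 to 492 and 470 to 827 CPM in APP. The WT ratios were 2.79, 2.87, 1.57 and 1.57 and the APP ratios 1.52, 1.27, 1.45, 1.44 and 0.82, so the lowest WT pairs lay just above the highest APP pair. The responses were 2.20 ± 0.22 and 1.30 ± 0.19, both called without each pair in turn. The difference was -0.90 ± 0.29 and did not pass the test (adjusted p = 0.999, edgeR quasi-likelihood). APP cultures were higher than WT by 1.16 before LPS and by 0.26 after it, as mean log2 CPM. Within the library numbers from 41 the difference was -0.44 and within those up to 22 it was -1.42. Because every WT ratio lay above every APP ratio, both values had to be below 0.

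Plxnb2, a receptor for semaphorins, went from 81.1 to 82.6, 50.7 to 68.6, 45.7 to 48.6 and 37.2 to 62.8 CPM in WT. In APP it went from 83.6 to 53.1, 82.9 to 44.3, 107 to 50.2, 29.1 to 20.6 and 51.3 to 37.4 CPM. Every WT pair was higher with LPS and every APP pair lower, with a difference of -1.05 ± 0.27. Smad6, an inhibitor of BMP signalling, showed the same arrangement, with ratios of 0.32, 0.20, 0.59 and 0.24 in WT and -0.44, -0.26, -1.20, -0.64 and -1.02 in APP and a difference of -1.05 ± 0.31. Pik3r1, the regulatory subunit of PI3-kinase, had 0.48, 0.11, 0.38 and 0.23 in WT and -0.00, -0.54, -0.71, -0.40 and -0.18 in APP, and a difference of -0.67 ± 0.21. Ddx19a, an RNA helicase of mRNA export, had a difference of -1.21 ± 0.34 and Igip -1.46 ± 0.48, each with 1 WT pair below 0 and no overlap.

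In the other 5 genes of the downward group the ratios overlapped. Slc20a1, a phosphate transporter, was at -0.75 ± 0.24, Pls3, an actin-bundling protein, at -0.80 ± 0.26, Cyp20a1 at -0.90 ± 0.28 and Pcdh7, a protocadherin, at -0.85 ± 0.27.

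Ndufa4, a small subunit of the respiratory chain, led the upward group. It went from 113 to 81.2, 189 to 88.0, 73.8 to 46.4 and 74.2 to 60.0 CPM in WT. In APP it went from 64.7 to 94.96, 64.3 to 84.1, 102 to 136, 56.2 to 71.1 and 75.4 to 82.9 CPM. All 4 WT pairs were lower with LPS and all 5 APP pairs higher. The responses were -0.64 ± 0.17 and 0.37 ± 0.15, neither of which passed the test (adjusted p = 0.194 and 0.298, edgeR), and the difference was 1.00 ± 0.23, with a 95% interval from 0.52 to 1.49 that is not adjusted for the genes tested. The difference was 1.24 within library numbers up to 22 and 0.73 within those from 41. Because every WT ratio lay below every APP ratio, both values had to be above 0.

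Nt5c3, a pyrimidine nucleotidase, also went down in all 4 WT pairs and up in all 5 APP pairs, at 13.4 to 47.7 CPM, with a difference of 1.13 ± 0.38. Aimp1, a scaffold of the tRNA synthetase complex, had ratios of -0.30, -0.34, -0.62 and -0.56 in WT and 0.30, -0.15, 0.28, 0.01 and -0.04 in APP, and a difference of 0.54 ± 0.17. Pdap1 at 0.47 ± 0.15 and Tmem164 at 1.27 ± 0.43 did not overlap either. Overlapping ratios were found in Tbcb, a tubulin folding cofactor, at 0.82 ± 0.27, Ppp4c, a phosphatase subunit, at 1.11 ± 0.38, Pabpc4, a poly(A)-binding protein, at 0.63 ± 0.22, Asnsd1 at 1.11 ± 0.39, Gm2000 at 0.72 ± 0.24 and mt-Atp8 at 0.53 ± 0.19.

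**Figure D4:**
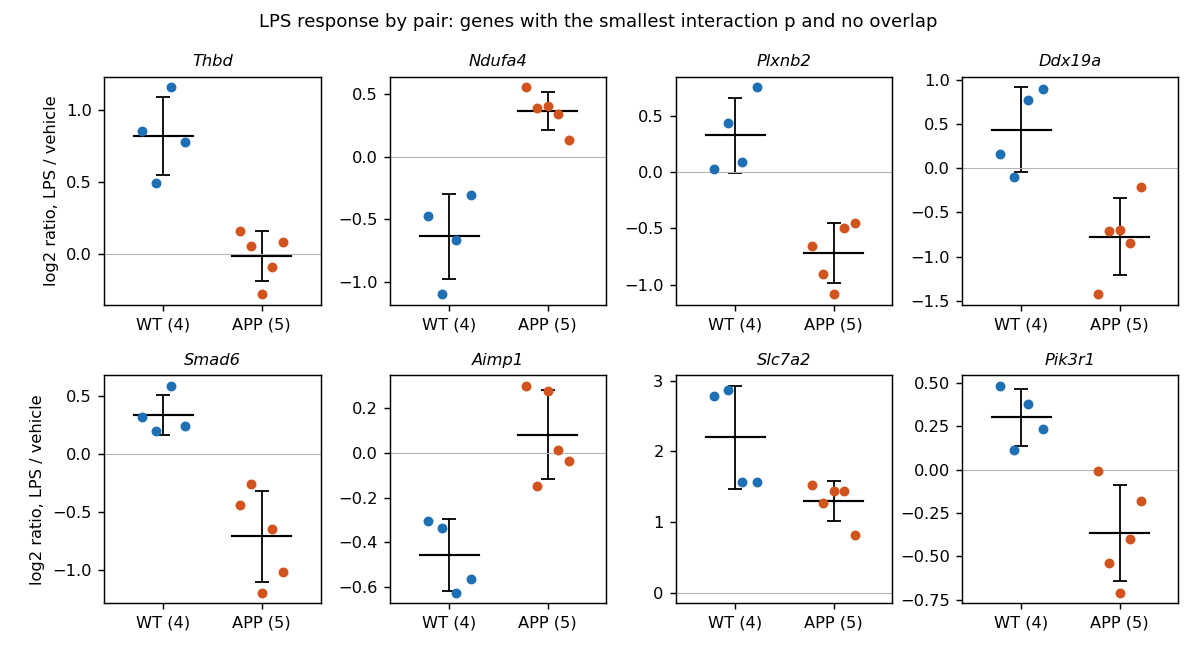
Points are the log2 ratio of LPS to vehicle in each pair for the 8 genes with the smallest unadjusted p among those whose WT (blue, 4) and APP (orange, 5) ratios did not overlap; bars give the mean ± SD. The genes were chosen for this separation, and none passed the test over 6217 genes.

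Some entries belong to transcripts whose reads are hard to assign. Srp54c, a near-identical copy of Srp54a and Srp54b, had a difference of 1.62 ± 0.52. When the 3 copies were summed the log2 ratio was 0.03 ± 0.24 in WT and 0.07 ± 0.13 in APP (SD), a difference of 0.04. The mitochondrial gene mt-Nd4l, which overlaps mt-Nd4, was listed at 0 in 11 of 19 libraries. In the WT pairs it went from 0 to 86.9, 0 to 67.6, 0 to 0 and 112 to 0 CPM, and in the APP pairs from 2.51, 176, 266, 22.7 and 74.9 CPM to 0 in each. DESeq2 called its difference at an adjusted p of 2.63e-09, and edgeR did so only without 57/58 (0.000447), without both 57/58 and 59/60 (0.000146), or with separate LPS terms for the ranges of library numbers (2.15e-05), the last chosen after the data had been seen. Summed with mt-Nd4 the ratio was -0.12 ± 0.24 in WT and -0.04 ± 0.25 in APP (SD), a difference of 0.08. Of the 13 mitochondrially encoded genes 8 were above 0, with a median of 0.02. How reads shared by such transcripts were divided is not given in the sources used here.

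The vehicle level is subtracted in the response, so a genotype difference in vehicle libraries tends to have the opposite sign to the difference in response. This held in all 24 genes with the smallest p. In 22 of them the difference in LPS libraries had the same sign as the difference in response. Over all 6217 genes the first held for 69.5%, the second for 72.4% and both for 41.9%. The genotype difference within vehicle libraries was not tested here. The 24 were chosen by the same values, so this describes where their differences lay.

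**Figure D5:**
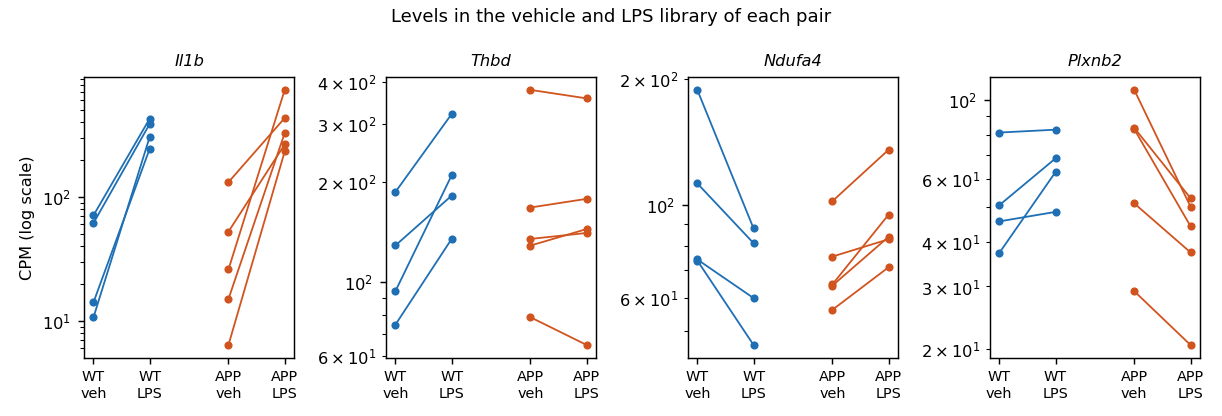
Lines join the vehicle and LPS level of each pair on a log scale in CPM, WT in blue (4 pairs) and APP in orange (5 pairs). Il1b rose in all 9 pairs, Thbd was higher with LPS in the 4 WT pairs and within 0.28 of no change on the log2 scale in the APP pairs, and Ndufa4 and Plxnb2 went opposite ways in the genotypes.

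Tests within each genotype gave unequal numbers of called genes, which is not a test of their difference. LPS changed 17 genes in WT (0.273%), with 13 higher and 4 lower, and 91 genes in APP (1.46%), with 38 higher and 53 lower. Both tests called 14, only the WT test 3 (Thbd, Timp1 and Tnfrsf1b) and only the APP test 77. Of the 94 genes called in either, 93 had the same sign in both genotypes and 11 had an unadjusted p under 0.05 for the difference. The 53 genes called lower in APP had a median log2 change of -0.88 in APP and -0.58 in WT. Larger falls in APP than in WT were seen in Cd5l, a macrophage survival factor, at -2.36 against -0.99, Slc8a1, a sodium-calcium exchanger, at -1.71 against -0.54, and in Tmem86a, a lysoplasmalogenase, at -1.61 against -0.55. These 3 genes were singled out after their values had been seen, and each difference had an adjusted p of 0.999 (edgeR quasi-likelihood). APP had 5 pairs and WT 4, and the counts moved widely when 1 pair was left out, from 1 to 21 in WT and from 16 to 124 in APP. Without both 57/58 and 59/60 they were 12 and 116, and with no pairing in the model they were 0 and 0. In WT 1 gene was called without 9/10 or 21/22 and 4 without 57/58, and in APP 16 were called without 7/8, 24 without 11/12, 26 without 3/4 and 58 without 51/52. Without any 1 pair, 1 of the 6 named genes called in WT (Slc7a2) and 5 of the 22 called in APP (Il1b, Slc7a2, Apoe, Trem2 and Ctsd) kept their call each time. Timp1 and Tnfrsf1b lost theirs without 9/10, 21/22, 57/58 or 51/52 and, by gene, 1 or 2 pairs more, and Cd5l, Slc8a1 and Tmem86a without 3/4 or 11/12 and 1 pair more (adjusted p up to 0.348 and 0.0955, edgeR).

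All WT pairs went one way and all APP pairs the other in 16 genes (0.257%). Besides Ndufa4, Nt5c3, Plxnb2, Smad6 and Pik3r1, 9 of them went up in WT and down in APP and 2 the reverse. The 9 were Dtnbp1, Atp2b4, Tmem248, Oser1, Mfsd11, Ptprm, Trim41, Ltbr and Rab14, and the 2 were Rnf138 and the ribosomal protein gene Rpl38. Ltbr, the lymphotoxin beta receptor that feeds the alternative NF-kB pathway, was at -0.60 ± 0.28, and Atp2b4, a calcium pump, at -1.30 ± 0.47. Rpl38, at a mean of 1194 CPM the most abundant of the 16, was at 0.28 ± 0.14, and Rab14, a GTPase of endosomes, at -0.29 ± 0.14. The 16 were picked by these signs and belong to the 79 genes without overlap, which were no more than random regrouping would give. None of the 16 passed the test over all genes.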

How the data were processed

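Microglial RNA from WT cultures (4 vehicle, 5 LPS) and APP cultures (5 of each) was read as 3' end libraries. Per the submitters' processing notes FastQC, Trimmomatic, kallisto and DESeq2 were used; settings and genome build: not given in the sources used here. The authors deposited 1 table of estimated counts per gene, all whole numbers, so rounding changed 0 values. Pseudoaligned reads shared by similar transcripts are divided by estimate, which affects near-identical genes. Whether duplicate molecules were collapsed is not given, so counts are not known to be independent molecules. Total counts ran from 13065257 to 31248988 in the paired libraries.

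Counts were scaled by TMM and fitted with edgeR 4.0.16 in R 4.3.3 (limma 3.58.1 and DESeq2 1.42.0 as alternatives), with 1 coefficient per pair of library numbers and 1 LPS coefficient per genotype, leaving 7 residual degrees of freedom. P-values were adjusted by Benjamini-Hochberg over 6217 genes, with 0.05 as the threshold. Ratios by pair used log2 CPM with a prior count of 2. The script was tested on simulated data. The labels do not say that neighbouring numbers share an animal. The deviations of the 2 libraries of a pair from their group means correlated at 0.297 to 0.653 in all 9 pairs. Each vehicle library was also compared with the LPS libraries of the other pairs of its genotype. The correlation within the pair was the higher except in 41/42 (0.310 against 0.317). Other combinations of libraries were not compared. Ddx3y agreed in sex within each pair.

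Genes were named by rule: the 12 with the smallest p in each direction, the 2 members of each list with the smallest p, the 3 with the largest averaged LPS change in 5 response lists, App, Ddx3y and Xist as checks, and Il1b, Tnf, Apoe and Trem2. The groups, members and lists were chosen with earlier results of these data known. Alternatives were no pairing, pairing by title number, other tools, scalings, filters and prior counts, an LPS effect that differs by sex or by library number, and leaving out pairs. The test of LPS averaged over the genotypes and the LPS effect by library number were added after seeing the data. Coordinates and sequences were not used here, and 4 genes that the rule names are not reported here.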

Additional observations from a re-analysis of the deposited data

Results flagged for a closer look

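In 9 of 198 groups of pairs examined, 1 pair lay far from the others of its genotype by Dixon's criterion, a rate that chance alone gives at about 1 in 20. In WT these were the log2 ratios of Nt5c3 (-1.01), Vcan (1.5) and Dlg4 (-0.24) in pair 57/58 and of Pecam1 (0.70) in 21/22. In APP they were Lyz2 (-0.56) and Idi1 (0.63) in pair 3/4, Hif1a (-0.53) in 11/12, Ly96 (-0.27) in 51/52 and Pcdh7 (0.45) in 59/60.

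Of the named genes, 5 went one way in all 4 WT pairs and the other way in all 5 APP pairs. The difference in response was 1.00 for Ndufa4, 1.13 for Nt5c3, -1.05 for Plxnb2, -1.05 for Smad6 and -0.67 for Pik3r1, each with an adjusted p of 0.999 (edgeR quasi-likelihood).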

How the results depend on the processing

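The number of genes with a genotype difference in response was 0, as reported, under each alternative except 4, which called mt-Nd4l alone: DESeq2 (1), leaving out 57/58 and 59/60 (1), leaving out 57/58 (0 to 1 over the 9 pairs left out in turn) and, chosen after seeing the data, an LPS effect that differed by range of library numbers (1). In none of the 24 genes with the smallest p did any alternative change the direction, and their smallest adjusted p was 0.177. These 24 were chosen by their values in the same libraries, which favours a kept direction. The cause of the following changes was not tested. The 17 and 91 LPS calls in WT and APP became 0 and 0 with no replicate block on 18 or 19 libraries, 0 and 2 with a replicate block by title number, 86 and 258 with DESeq2, 78 and 177 with limma voom, 2 and 5 with LPS by sex and 250 and 442 with LPS by library number. They became 11 and 44 with a mean of at least 5 CPM (9895 genes tested), and 35 in WT with at least 50 CPM (3502 genes). With 1 pair left out they ran from 1 to 21 and from 16 to 124. The 79 genes without overlap were 40 at 50 CPM and 132 at 5 CPM, where fewer and more genes were counted, and 138 to 232 with 1 pair left out, where fewer pairs had to separate.

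Of 99 named genes, 22 changed the sign of a difference that was not called. With no replicate block on 18 libraries, it was -0.18 for Il12b, 0.15 for Aldoc, 0.11 for Dlg4, 0.13 for Rgs5, -0.019 for Il1b, -0.48 for Cxcl3, 0.54 for Cxcl1, -0.22 for Saa3, 0.050 for Socs3, -0.62 for Ifi44 and -0.25 for Zbp1. On 19 libraries, it was -0.25 for Il12b, 0.069 for Dlg4, 0.26 for Rgs5, -0.32 for Cxcl3, 0.52 for Cxcl1, -0.12 for Saa3, 0.088 for Socs3, -0.036 for Irak3, -0.51 for Ifi44 and -0.24 for Zbp1. With the replicate block by title number, it was -0.065 for H2-D1, -0.12 for Ifi30, 0.12 for Fn1, 0.47 for Vcan, 0.10 for Cxcl1, -0.10 for Irak3, 0.086 for Gbp2 and 0.065 for Apoe. With limma voom, it was -1.96 for Il12b, 0.33 for Aldoc, 0.026 for Dlg4, 0.20 for Rgs5, -0.10 for Il1b, -0.078 for Il1a, -0.83 for Cxcl3, 0.26 for Cxcl1, -0.069 for Acod1, -0.61 for Ifi44 and -0.64 for Zbp1. With LPS by sex, it was 0.028 for Cxcl1, 0.024 for Socs3 and 0.0040 for Gbp2, and with LPS by library number, -0.10 for Il1b, -0.078 for Acod1, -0.68 for Ifi44 and -0.0042 for Zbp1. Without 57/58 and 59/60 it was 0.11 for Vcan. With 1 pair left out, Pf4 ran from -0.39 to 0.016, Vcan from -0.54 to 0.088, Dlg4 from -0.40 to 0.063, Il1b from -0.21 to 0.69, Cxcl3 from -0.21 to 3.19, Cxcl1 from -0.73 to 0.55, Acod1 from -0.31 to 0.78, Saa3 from -0.22 to 0.62, Socs3 from -0.31 to 0.35, Irak3 from -0.14 to 0.47, Tnfaip3 from -0.58 to 0.056, Ifi44 from -0.47 to 1.49, Gbp2 from -0.67 to 0.66 and Zbp1 from -0.51 to 0.92. Depth limits the lowest genes: 77 of the genes tested were at 0 in at least 1 library.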

Other observations

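The WT LPS library with no vehicle partner entered no difference of differences. Its Il1b was at 194 CPM, below the 245 to 428 CPM of the paired WT LPS libraries, and its Acod1, which makes itaconate, was at 281 CPM beside 293 to 455. Tnf at 70.1 CPM, Socs3 at 70.9 CPM and Cxcl1 at 1111 CPM lay within the paired ranges of 60.4 to 101, 59.3 to 103 and 309 to 2411 CPM. Apoe at 115 CPM lay below its paired range of 273 to 345 CPM, and Trem2 at 137 CPM lay above its range of 20.1 to 103 CPM. Of the genes with the smallest p, Plxnb2 (55.5 CPM, paired 48.6 to 82.6), Ndufa4 (61.1 CPM, paired 46.4 to 88.0) and Slc7a2 (188 CPM, paired 160 to 840) lay within the paired ranges, Thbd (130 CPM, paired 135 to 321) lay below and Aimp1 (237 CPM, paired 146 to 187) above.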
